A study of Mus musculus with 18 samples.

Results

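The major histocompatibility complex (MHC) class II genes and their transactivator gene Ciita were followed in mammary tumours of ERBB2 mice. They comprise 6 genes, Cd74, Ciita, H2-Aa, H2-Ab1, H2-Eb1 and H2-DMa, of 19938 genes measured. Each was taken by its platform gene symbol and was read by 1 probe set that names a single gene. H2-Aa, H2-Ab1, H2-Eb1 and H2-DMa lie on chromosome 17, Ciita on chromosome 16 and Cd74 on chromosome 18.

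Class II molecules are pairs of an alpha and a beta chain that show peptides from endocytosed proteins to CD4 T cells. The invariant chain, encoded by Cd74, escorts the new pair to the endosome and fills its groove, and H2-DM then exchanges the remnant for a peptide. Macrophages, dendritic cells and B cells make class II constitutively, while many other cells, epithelial cells among them, can make it after interferon gamma, which induces Ciita. Class I molecules, the comparison here, show peptides from the cytosol to CD8 T cells and are made by nearly all nucleated cells.

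All mice carried the ERBB2 (neu) transgene of the FVB/N-Tg(MMTVneu)202Mul/J line, which a mouse mammary tumour virus promoter drives in the mammary epithelium. The KO mice lacked Snai2, which encodes a zinc finger repressor, through the allele of B6;129S1-Snai2tm2Grid/J. The WT mice kept it. Ages, and the share of each strain's genome in each mouse, are not known from the labels. Bulk tumour RNA was hybridised to 18 arrays. The groups were KO parous mice with metastasis (3 arrays), KO parous without metastasis (3), KO nulliparous with metastasis (1), KO nulliparous without metastasis (3), WT parous with metastasis (4) and WT nulliparous with metastasis (4). In the first of these groups the arrays of replicates 2 and 3 were almost the same and were averaged, so 17 samples were tested and that group has n = 2. In this pair the 6 genes differed little, for example 10.93 against 10.95 for Cd74 and 7.77 against 7.62 for Ciita on the log2 scale. No WT mouse without metastasis is in the series.

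Values are log2 expression after robust multi-array averaging (RMA). A gene was said to rise or fall where limma's 2-sided test gave a Benjamini-Hochberg adjusted p under 0.05 over the 19938 genes. Array medians lay between 7.60 and 7.67. Snai2, which checks the genotype labels, was dim in both genotypes. It averaged 6.54 ± 0.17 (SD, n = 9) over KO samples and 6.84 ± 0.17 (SD, n = 8) over WT samples (exact permutation p = 0.00239, 2-sided), and it is not known here which part of the gene its probes read. The mean of 7 epithelial genes was 11.09 to 11.42 over the groups, with Krt19 dim in most samples. The labels record no batch or scan date.

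The promoters of class II genes share a module of X1, X2 and Y boxes. Regulatory factor X, CREB and nuclear factor Y bind these boxes, and the CIITA protein docks on them without binding DNA itself. RefSeq promoter windows of GRCm38.p6, from 250 bases before to 50 after the gene start, were found for 3 of the 6 genes. They were searched on both strands for the Y box CTGATTGG, the X1 box (the 11 letters AGCAACTGATG with any base at the third, the fourth and the seventh place) and the X2 box TGACGTCA, which reads the same on either strand. The windows of the H2-Aa and H2-Eb1 genes are shown because they hold matches and because these neighbouring genes differed in their pattern over tumours. They lie at chr17:34287774-34288073 on the minus strand and chr17:34305617-34305916 on the plus strand, and the matches stand in capitals.
H2-Aa: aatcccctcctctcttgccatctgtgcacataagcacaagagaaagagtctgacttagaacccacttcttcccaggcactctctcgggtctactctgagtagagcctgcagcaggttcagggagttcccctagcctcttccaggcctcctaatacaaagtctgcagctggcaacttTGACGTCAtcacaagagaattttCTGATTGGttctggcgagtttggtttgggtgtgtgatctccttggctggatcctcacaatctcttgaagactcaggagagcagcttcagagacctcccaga
H2-Eb1: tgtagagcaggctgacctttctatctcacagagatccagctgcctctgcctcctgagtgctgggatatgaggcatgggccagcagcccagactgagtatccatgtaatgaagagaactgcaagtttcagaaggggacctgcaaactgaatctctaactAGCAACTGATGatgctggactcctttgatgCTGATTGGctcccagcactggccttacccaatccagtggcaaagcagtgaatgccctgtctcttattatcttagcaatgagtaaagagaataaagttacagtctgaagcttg
In H2-Aa the X2 match started at position -74 from the gene start and the Y match at position -51. In H2-Eb1 the X1 match started at -92 and the Y match at -62. No match overlapped another. Over all 32851 windows, the Y box was found in 4.1%, the X1 box in 0.968% and the X2 box in 1.79%. Neither of the 2 windows of H2-DMa held these letters. In the class I list, 15 of 17 genes had a window, and the Y box was found in 7 of them, among them H2-K1, H2-D1 and Tap1. The X1 box was found in 1 of them, Psmb10, and the X2 box in 0. Psmb9 is also among the 7 with a Y box. Its window overlaps that of Tap1, and the Y match in both is the same site. A match is a description of the letters and not a shown binding site.

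The class II genes ranged from somewhat below the middle to high levels, ranked within each sample. Cd74 lay between the 73.3 and 97.9 percentile of genes, H2-Aa between 70.5 and 97.4 and H2-Ab1 between 53.2 and 83.7. H2-Eb1 lay between 49.8 and 75.1, H2-DMa between 42.7 and 62.5 and Ciita between 38 and 53.3. The percentiles describe the signal of each gene's own probes, and a higher percentile was not read as more RNA than that of another gene.

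Averaged over the 6 genes, class II was highest in the lone tumour of a KO nulliparous mouse with metastasis, at a log2 mean of 9.73. WT nulliparous tumours followed at 9.51 ± 0.52 (SD, n = 4), then KO parous without metastasis at 9.18 ± 0.21 (SD, n = 3). KO parous with metastasis stood at 8.99 ± 0.27 (SD, n = 2), KO nulliparous without metastasis at 8.85 ± 0.39 (SD, n = 3) and WT parous at 8.69 ± 0.14 (SD, n = 4). Each group overlapped the next in this order. WT parous tumours, at 8.57 to 8.82, all lay below the 4 WT nulliparous tumours, at 8.86 to 9.93. WT nulliparous tumours also varied most among themselves.

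**Figure D1:**
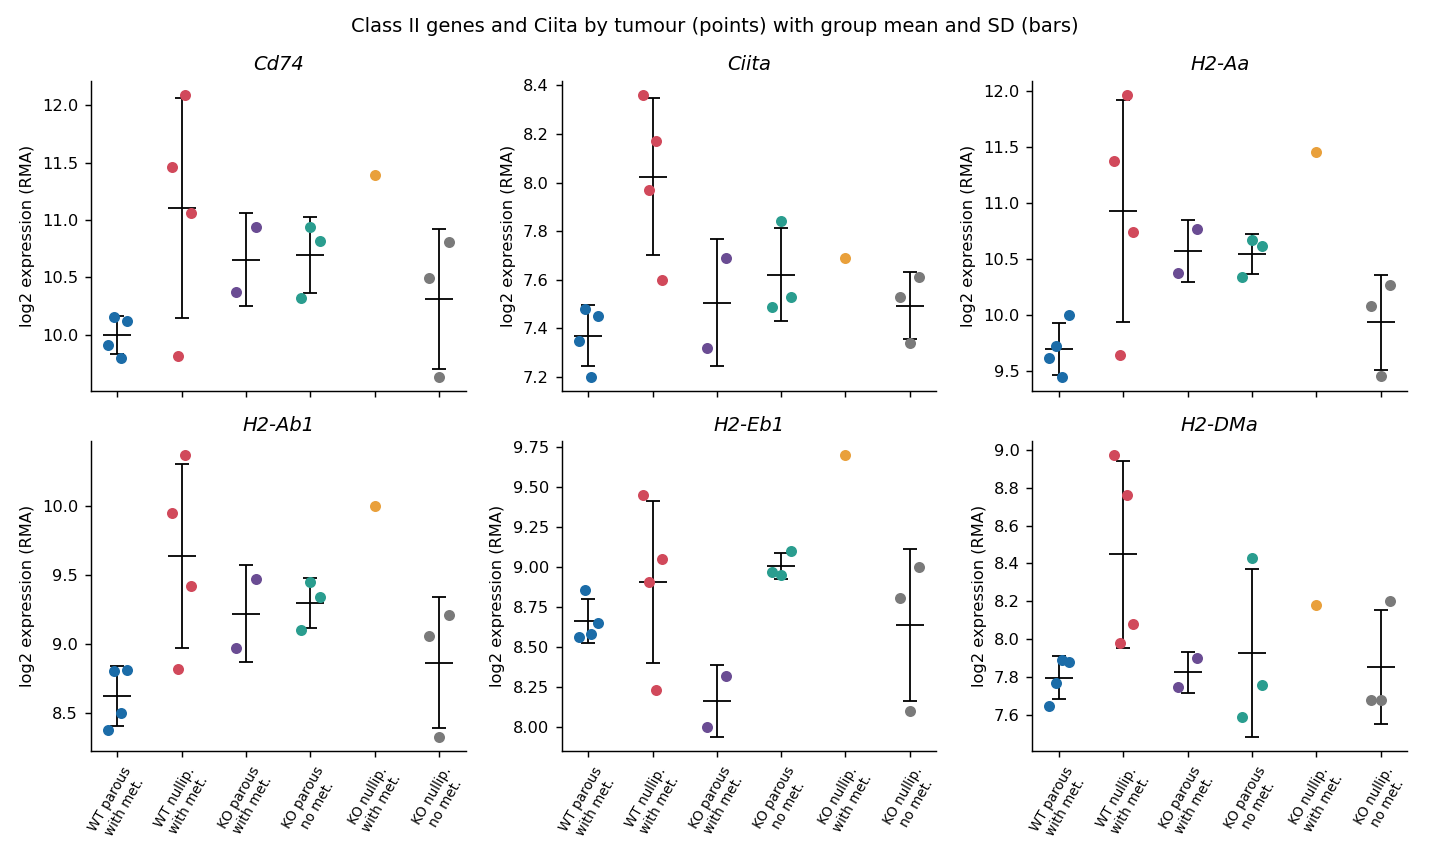
Log2 expression (RMA) of each of the 6 genes, 1 panel per gene with its own vertical axis. Points are tumour samples, bars the group mean and SD; met. is metastasis and nullip. nulliparous. WT nulliparous tumours spread widely, from 9.81 to 12.09 for Cd74, while WT parous tumours lie close together, and H2-Eb1 is lowest in KO parous tumours with metastasis.

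Ciita was the member that passed the test between parous and nulliparous WT mice, both with metastasis. CIITA is the master coactivator of class II transcription. Its log2 level was 7.35, 7.48, 7.20 and 7.45 in parous replicates 1 to 4, and 8.36, 7.97, 8.17 and 7.60 in nulliparous replicates 1 to 4. The groups did not overlap, and nulliparous replicate 4 came closest to the parous tumours. Ciita fell with parity by 0.66 (SE 0.15, adjusted p = 0.0387 by limma), which is 1.57-fold. The call sat near the threshold. It was lost without WT parous replicate 1, 2, 3 or 4, without WT nulliparous replicate 1, 2 or 3 and without KO nulliparous replicate 1 without metastasis. The adjusted p was then 0.0505 to 0.12, and the difference ranged from -0.80 to -0.54 over all samples left out in turn. In the remaining groups Ciita averaged 7.69 in the KO nulliparous tumour with metastasis, 7.62 ± 0.19 (SD, n = 3) in KO parous tumours without metastasis, 7.51 ± 0.27 (SD, n = 2) in KO parous tumours with metastasis and 7.49 ± 0.14 (SD, n = 3) in KO nulliparous tumours without metastasis. In the order of all 6 means each group overlapped the next.

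Of the 6 genes, 1 passed in this contrast, where 2.4% of all genes passed in either direction and 1.86% fell. At an unadjusted p under 0.05, 5 of the 6 genes were lower in parous mice, against 9.81% of all genes. All 6 differences lay below 0, against 51.7% of all genes, and their median was -0.84 against -0.01 over all genes. Groups did not overlap for 3 of the 6, Ciita, H2-Ab1 and H2-DMa, where 7.63% of all genes were lower without overlap.

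The chain genes H2-Aa and H2-Ab1, which encode the alpha and beta chains of the I-A molecule, had larger differences than Ciita but a wider spread. H2-Aa stood at 9.62, 9.73, 9.45 and 10 in WT parous replicates 1 to 4, and at 11.37, 9.65, 11.96 and 10.74 in WT nulliparous replicates 1 to 4. H2-Ab1 stood at 8.37, 8.80, 8.50 and 8.81, and at 9.95, 8.82, 10.37 and 9.42, in the same order. Nulliparous replicate 2 lay at the level of the parous tumours for both genes, and the other 3 lay above them. The log2 difference was -1.23 (SE 0.37, adjusted p = 0.107 by limma) for H2-Aa and -1.02 (SE 0.29, adjusted p = 0.0852 by limma) for H2-Ab1. Neither passed. The 95% confidence intervals ran from -2.04 to -0.43 and from -1.64 to -0.40.

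Cd74 and H2-DMa, which serve the loading of the I-A and I-E molecules, were also lower without passing. Cd74 stood at 9.91, 10.15, 9.80 and 10.12 in WT parous replicates 1 to 4. In WT nulliparous replicates 1 to 4 it stood at 11.46, 9.81, 12.09 and 11.06, so that replicate 2 again lay within the parous range. Its difference was -1.11 (SE 0.39, adjusted p = 0.164 by limma). H2-DMa encodes the alpha chain of the peptide exchanger. It stood at 7.65, 7.77, 7.89 and 7.88 in parous and at 8.97, 7.98, 8.76 and 8.08 in nulliparous tumours, with replicates 1 and 3 of the latter well above the rest. Its difference was -0.65 (SE 0.23, adjusted p = 0.167 by limma).

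Which members passed changed with the tumours included. Without WT nulliparous replicate 2, Cd74 (-1.55, adjusted p = 0.0218), H2-Aa (-1.66, adjusted p = 0.0112) and H2-Ab1 (-1.29, adjusted p = 0.0225) passed by limma, and Ciita did not (-0.67, adjusted p = 0.0588). Without WT nulliparous replicate 3, the brightest tumour for Cd74 and H2-Aa, 0 of the 6 passed, with 6 of 6 still below 0. An exact permutation test over the 8 WT tumours, 2-sided and without adjustment, can give no p below 0.0286, and it gave that value for Ciita, H2-Ab1 and H2-DMa. It gave 0.114 for Cd74, 0.0857 for H2-Aa and 0.371 for H2-Eb1.

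H2-Eb1, the beta chain gene of the I-E molecule, had the smallest WT parity difference of the 6. It stood at 8.56, 8.86, 8.58 and 8.65 in WT parous replicates 1 to 4, and at 9.45, 8.91, 8.23 and 9.05 in WT nulliparous replicates 1 to 4. Nulliparous replicate 3, the brightest tumour for Cd74, H2-Aa and H2-Ab1, was the dimmest of the 8 WT tumours for H2-Eb1. The difference was -0.25 (SE 0.23, adjusted p = 0.672 by limma), and -0.48 (adjusted p = 0.229) without that tumour. Without WT nulliparous replicate 1 it was -0.07 (adjusted p = 0.952).

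Over the 17 samples Cd74, H2-Aa and H2-Ab1 moved almost as 1 signal, with a Pearson r of 0.98 for each of their 3 pairs. Ciita and H2-DMa had an r of 0.87 with each other and of 0.70 to 0.77 with those 3 genes. H2-Eb1 had an r of 0.31 to 0.40 with the other 5 genes, and of 0.91 with H2-Ea, a nearby gene for the alpha chain of I-E. These correlations are descriptions over samples that share groups, and no p is given.

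H2-Ea and the other chain genes were followed as genes outside the 6. RefSeq lists H2-Ea as a transcribed pseudogene, and C57BL/6 is among the strains that carry a deletion in its promoter. H2-Ea stood at 7.57 and 7.56 in KO parous tumours with metastasis, at 10.23, 10.61 and 10.45 in KO parous tumours without and at 11.05 in the KO nulliparous tumour with metastasis. It stood at 10.34, 6.95 and 10.78 in KO nulliparous tumours without metastasis. WT parous tumours had 9.31, 10.36, 9.70 and 9.78, and WT nulliparous tumours 11.24, 10.27, 8.48 and 10.44. The 4 lowest samples were thus both KO parous samples with metastasis, KO nulliparous replicate 2 without metastasis and WT nulliparous replicate 3. The same 4 samples were the lowest of the 17 for H2-Eb1, at 8, 8.32, 8.10 and 8.23.

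Farther along chromosome 17, the genes D17H6S56E-5 and Vars had the same 4 samples lowest. D17H6S56E-5 had log2 levels of 8.61, 9.24, 9.51 and 9.06 in them and of 11.37 to 13.35 in the other 13 samples. Vars, which encodes valyl-tRNA synthetase, had 9.42, 9.75, 10.10 and 9.84 in them and 10.22 to 10.87 in the other 13. Counted in RefSeq gene order from H2-DMa, H2-Ab1 is gene 8, H2-Aa gene 9, H2-Eb1 gene 10, H2-Ea gene 12, D17H6S56E-5 gene 48 and Vars gene 49. H2-Ab1 minus H2-Aa, in contrast, varied by 0.76 over the 17 samples, while H2-Eb1 minus H2-Ab1 varied by 2.33 and H2-Ea minus H2-Aa by 4.12. The H2 haplotype of each mouse is not stated in the labels, and its part in the H2-Eb1 results was not tested. D17H6S56E-5 and Vars were picked after their values were seen.

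**Figure D2:**
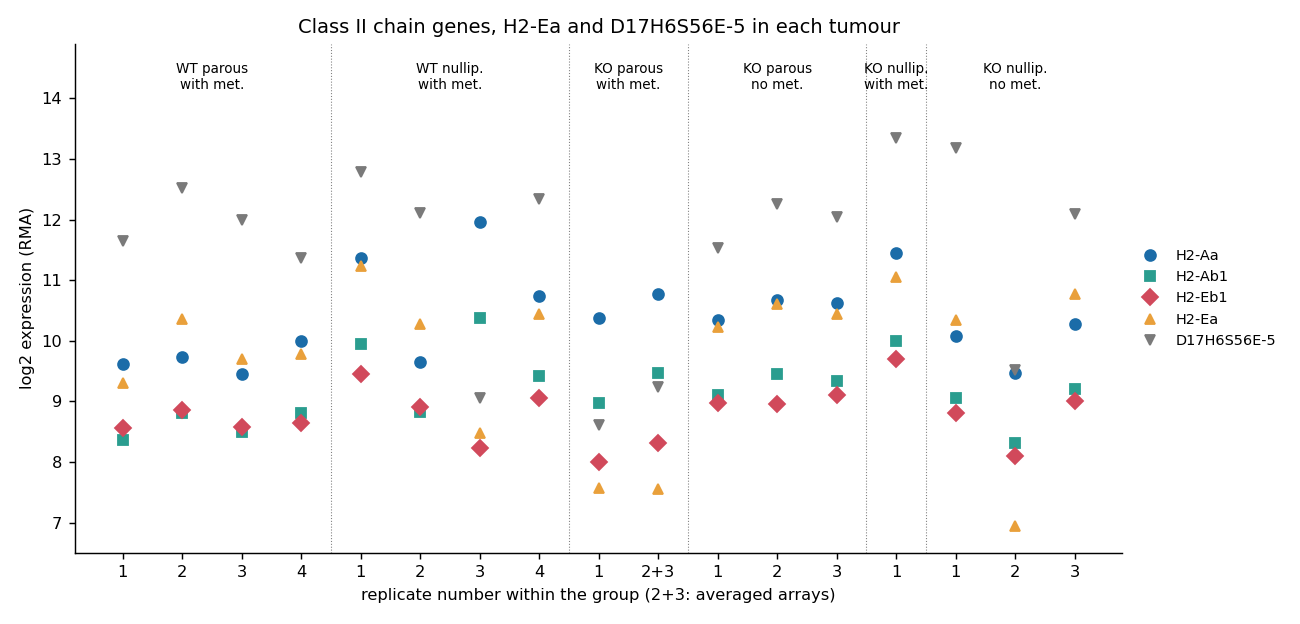
Log2 expression (RMA) of H2-Aa, H2-Ab1, H2-Eb1, H2-Ea and D17H6S56E-5 in each of the 17 samples, ordered by group along the horizontal axis. H2-Ea and D17H6S56E-5 drop in the same 4 samples, in which H2-Eb1 is also lowest, while 1 of them, WT nulliparous replicate 3, has the highest H2-Aa of all.

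In KO mice without metastasis none of the 6 genes passed between parous and nulliparous mice. The test called 0% of all genes there, 3.29% had an unadjusted p under 0.05, and 0 of the 6 genes had one. All 6 differences lay above 0, and 47.4% of all genes lay below 0. H2-Aa stood at 10.34, 10.67 and 10.62 in parous and at 10.08, 9.46 and 10.27 in nulliparous tumours. These groups did not overlap, as for 3.14% of all genes in the upward direction, and the difference was 0.60 (SE 0.43, adjusted p = 1 by limma). H2-Ab1 stood at 9.10, 9.45 and 9.34 against 9.06, 8.32 and 9.21, a difference of 0.43 (SE 0.33). Cd74 stood at 10.32, 10.94 and 10.82 against 10.49, 9.63 and 10.81, a difference of 0.38 (SE 0.45). Nulliparous replicate 2 was the lowest of these 6 tumours for all 3 genes. The differences of H2-Eb1, Ciita and H2-DMa were 0.37, 0.13 and 0.07. Without nulliparous replicate 2 the difference was 0.37 for H2-Aa, 0.16 for H2-Ab1, 0.04 for Cd74 and 0.10 for H2-Eb1, and without parous replicate 2 it was 0.02 for Ciita. The median over the 6 genes was 0.38, against 0.01 over all genes.

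The parity differences were set against each other directly, KO without metastasis minus WT with metastasis. All 6 values lay above 0, where 45.1% of all genes lay below 0, with 1.83 (SE 0.57, 95% interval 0.61 to 3.06) for H2-Aa, 1.5 (SE 0.60, 95% interval 0.21 to 2.79) for Cd74 and 1.45 (SE 0.44, 95% interval 0.50 to 2.40) for H2-Ab1. Ciita stood at 0.78, H2-DMa at 0.72 and H2-Eb1 at 0.62. Their adjusted p by limma lay between 0.353 for Ciita and 0.598 for H2-Eb1, and 0 of the 6 passed, as did 0% of all genes. At an unadjusted p under 0.05 there were 4 of 6, Cd74, Ciita, H2-Aa and H2-Ab1, against 9.64% of all genes. Genotype and metastasis status change together in this comparison and cannot be told apart.

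Class I genes were read beside class II. The list holds classical and related heavy chains, beta-2 microglobulin, the peptide transporter, the immunoproteasome and the class I transactivator Nlrc5, and 11 of its 17 genes were measured by probe sets that name 1 gene. H2-K1 and H2-D1 are among the 6 not analysed here. The only heavy chain genes measured were H2-Q4 and H2-M3, which are not classical. The class I list mean thus mostly reads genes of loading and of the immunoproteasome. In WT parous against nulliparous mice 6 of the 11 fell, H2-Q4, H2-M3, Tap1, Tapbp, Psmb8 and Psmb9, where 1.86% of all genes fell. All 11 differences lay below 0, against 51.7% of all genes, with a median of -1. Tap1, which encodes a subunit of the peptide transporter, stood at 10.43, 10.30, 9.50 and 9.59 in parous and at 12.10, 11.29, 12.02 and 11.75 in nulliparous tumours. Nlrc5, the class I counterpart of Ciita, stood at -0.50 (SE 0.13, adjusted p = 0.0594 by limma) and did not pass.

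The WT groups did not overlap in the class I list mean, nor in the class II mean given above. The class I list mean was 10.29, 10.31, 9.68 and 9.97 in WT parous and 11.49, 10.83, 11.24 and 11.09 in WT nulliparous replicates 1 to 4. Nulliparous replicate 2 was the lowest of the nulliparous tumours in both means, at 10.83 for class I and 8.86 for class II, and above every parous tumour in both. Groups did not overlap for 10 of the 11 class I genes, with B2m the exception, and for 3 of the 6 class II genes, where 7.63% of all genes were lower without overlap; the difference between the classes was not tested on this count. In the KO groups the class I list mean was 9.94 ± 0.35 (SD, n = 2) for parous with metastasis, 10.04 ± 0.41 (SD, n = 3) for parous without, 9.98 ± 0.31 (SD, n = 3) for nulliparous without and 10.83 in the lone nulliparous tumour with metastasis. WT parous tumours, at 10.06 ± 0.30 (SD, n = 4), lay among these KO groups for class I. In KO mice without metastasis the class I median difference with parity was 0.11, with 0 of 11 passing.

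**Figure D3:**
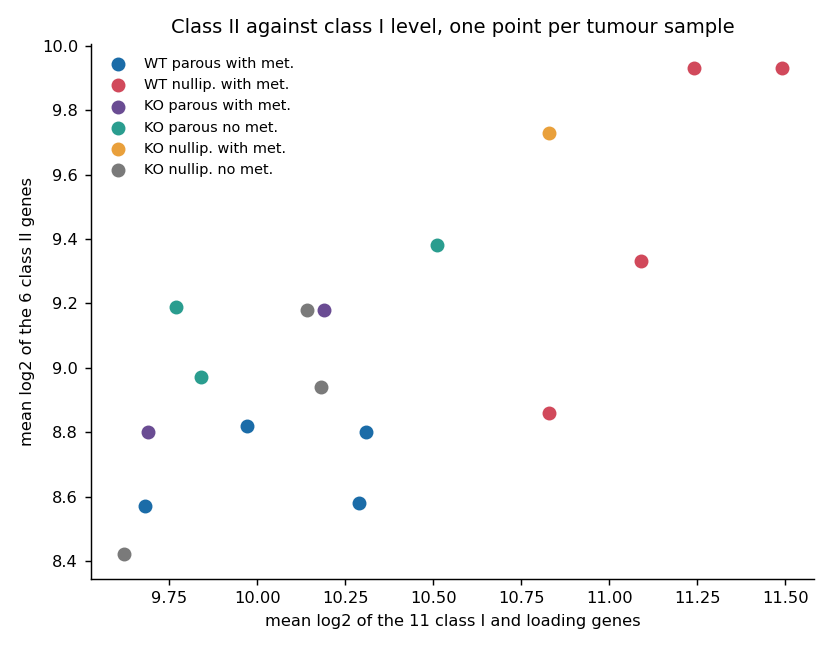
Mean log2 expression of the 6 class II genes (vertical) against the mean of the 11 measured class I and loading genes (horizontal), with 1 point per tumour sample and colours for the 6 groups. The 4 WT nulliparous tumours all lie at 10.83 or more for class I but range from 8.86 to 9.93 for class II.

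The difference between class II and class I was tested on each gene's log2 value minus the class I list mean of the same sample. In WT parous minus nulliparous mice this relative value was -0.01 (SE 0.29) for Cd74, -0.13 (SE 0.29) for H2-Aa and 0.08 (SE 0.27) for H2-Ab1. Their 95% intervals, -0.60 to 0.58, -0.72 to 0.46 and -0.47 to 0.64, leave room for differences in either direction. Ciita stood at 0.45 (SE 0.26, adjusted p = 0.0944 by limma) and H2-DMa at 0.45 (SE 0.27, adjusted p = 0.1 by limma). H2-Eb1 rose relative to class I by 0.85 (SE 0.28, adjusted p = 0.0041 by limma), and the call was lost without WT nulliparous replicate 3 (0.60, adjusted p = 0.058). Of all genes 95% passed, since a class I mean that was lower in parous mice was subtracted from each, and 1 of 6 is far below that share. Subtracting 1 mean ties all genes together and makes these p-values too small. The SEs and 95% intervals come from the same fit and can be too narrow for the same reason. For Cd74 the relative value had an SD of 0.25 in parous and 0.76 in nulliparous tumours (n = 4 each). For H2-Aa the SDs were 0.32 and 0.78. An exact permutation test over the 8 WT tumours, 2-sided, gave p = 0.0286 for H2-Eb1, the smallest that 70 splits allow, 0.0571 for Ciita, 0.171 for H2-DMa and 0.771 to 1.0 for the other 3 genes.

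**Figure D4:**
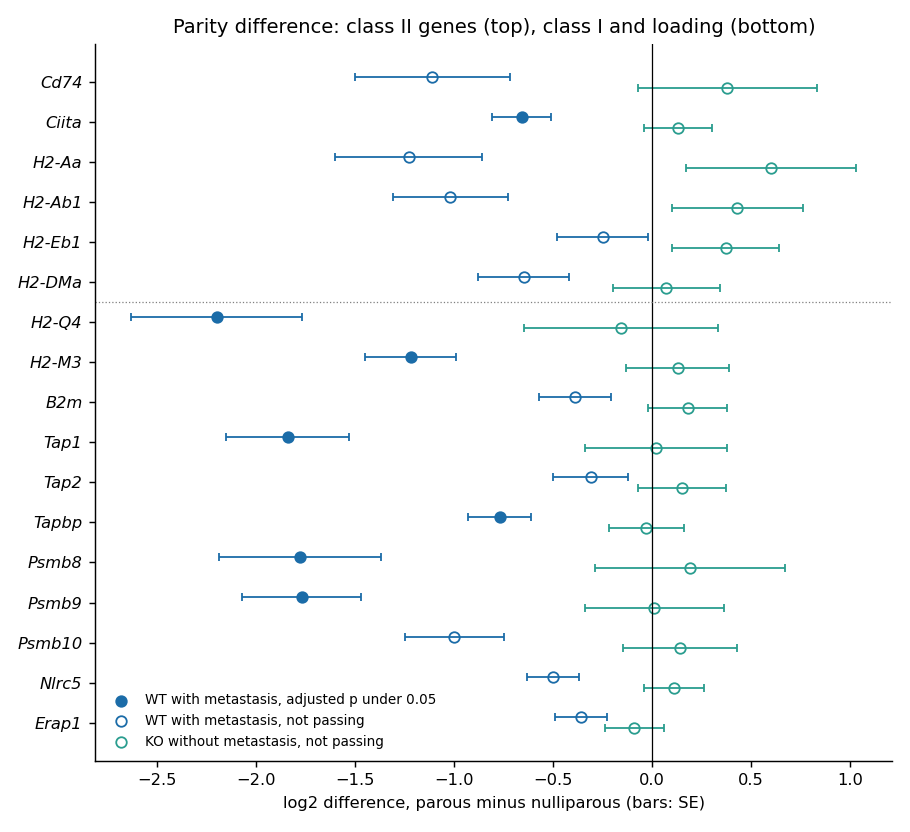
Log2 difference, parous minus nulliparous, with SE bars for the 6 class II genes (top) and 11 class I and loading genes (bottom), in WT mice with metastasis (blue) and KO mice without (green). Filled points have an adjusted p under 0.05. In WT mice the values run from -1.23 to -0.25 for class II and from -2.20 to -0.31 for class I, and no filled point is green.

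Between KO and WT tumours of parous mice with metastasis (n = 2 and 4) none of the 6 genes passed, and 0% of all genes did. H2-Aa was 10.38 and 10.77 in the KO samples and at most 10 in WT, a difference of 0.87 (SE 0.46, adjusted p = 0.907 by limma, 95% interval -0.11 to 1.86). Cd74 (10.37 and 10.94, difference 0.66) and H2-Ab1 (8.97 and 9.47, difference 0.60) also lay above all 4 WT tumours. Without the averaged KO sample the differences of Cd74 and H2-Ab1 were 0.38 and 0.36. Such separation upward was seen for 6.27% of all genes. H2-Eb1, at 8 and 8.32, lay below all 4 WT tumours with a difference of -0.50 (SE 0.28, adjusted p = 0.914 by limma), as did 11.7% of all genes. Ciita at 0.14 and H2-DMa at 0.03 overlapped. The class I median was -0.07, with 0 of 11 passing. In the additive fit over all 17 samples the genotype difference ran from -0.12 for H2-DMa to 0.64 for H2-Aa, and 0 of the 6 genes passed, as did 0% of all genes. At an unadjusted p under 0.05 there were 0 of the 6, against 5.73% of all genes in the contrast of parous mice and 4.44% in the additive fit.

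Metastasis in parous KO mice (n = 2 with and 3 without) went with no change that passed, in these 6 genes or in any gene (0% of all). H2-Eb1 was 8 and 8.32 with metastasis and 8.97, 8.95 and 9.10 without, a difference of -0.85 (SE 0.30, unadjusted p = 0.0137, adjusted p = 0.967 by limma). Of all genes 10% were lower without overlap and 4.04% had an unadjusted p under 0.05. Both samples with metastasis are among the 4 with the lowest H2-Ea and D17H6S56E-5, and H2-Ea differed by -2.86 in the same contrast. The other 5 genes differed by -0.11 to 0.03, H2-Aa by 0.03 (95% interval -1.01 to 1.07) and Ciita by -0.11 (95% interval -0.53 to 0.30). This comparison shares its KO samples with metastasis with the genotype contrast of parous mice.

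The remaining class II genes were dim or did not pass. H2-DMb1 and H2-DMb2, for the partner chain of H2-DMa, are not analysed here. H2-Oa and H2-Ob, which encode the chains of the H2-DM inhibitor H2-O, and H2-Eb2 lay at or below the 39.7 percentile of genes in every sample. In WT mice 0 of the 4 measured genes passed with parity, with differences of -0.16 for H2-Oa, -0.10 for H2-Ob, -0.06 for H2-Eb2 and -0.32 for H2-Ea.

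None of the factors that build the class II promoter complex passed. Of the 7 genes for regulatory factor X, CREB and nuclear factor Y subunits, 0 passed with parity in WT mice, with a median of 0.01. Rfx5 stood at -0.27 (SE 0.10, adjusted p = 0.189 by limma) and Nfyc at -0.65 (SE 0.17, adjusted p = 0.0684 by limma), while Rfxap, Creb1, Nfya and Nfyb lay between 0.01 and 0.19. Nfyc lies on chromosome 4, on which 148 of 1154 genes fell and 0 rose in this contrast. On chromosome 17, which holds the H2 genes, 17 of 936 genes fell and 13 rose.

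Of the interferon gamma genes 3 of 12 fell with parity in WT mice, where 1.86% of all genes fell. Jak1, a kinase of the interferon receptors, was at -0.83 (SE 0.15, adjusted p = 0.018 by limma) and also lies on chromosome 4. The chemokine genes Cxcl9 and Cxcl10, which interferon gamma induces, were at -1.96 (SE 0.42, adjusted p = 0.0336 by limma) and -0.69 (SE 0.14, adjusted p = 0.0295 by limma). Irf1, which encodes an activator of Ciita transcription, stood at -0.96 (SE 0.24, adjusted p = 0.055 by limma). Ifng itself stood at -0.07 (SE 0.07), and Ifngr1 and Ifngr2 at -0.07 and 0.05. The Ifng signal was dim, at 6.56 to 7.08 over the samples, and RMA compresses differences of dim genes. In KO mice without metastasis 0 of 12 passed.

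Genes of the endosomal step and of costimulation did not pass. Of 7 endosomal genes 0 passed in WT mice, with cathepsin S (Ctss), which trims the invariant chain in many antigen presenting cells, at -0.84 (SE 0.32, adjusted p = 0.197 by limma) and cathepsin L (Ctsl) at 0.57 (SE 0.19, adjusted p = 0.14 by limma). Of 3 costimulation genes 0 passed, with Cd86 at -0.69 (SE 0.18, adjusted p = 0.071 by limma), Cd80 at -0.28 and Cd40 at -0.20.

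In bulk tumours fewer cells that make class II and less class II RNA per cell cannot be told apart. Marker lists of the cells that carry class II were therefore set beside the results. Macrophage markers averaged 8.78 to 9.72 over WT parous and 9.31 to 9.74 over WT nulliparous tumours, with 0 of 15 passing, 14 of 15 below 0 and a median of -0.56. Dendritic cell markers averaged 6.90 to 7.24 and 7.07 to 7.43, with 0 of 12 passing and a median of -0.17. B cell markers averaged 6.11 to 6.22 and 6.18 to 6.29, with 0 of 9 passing and a median of -0.06. The dendritic and B cell means lay below every array median, and RMA compresses differences of dim genes. The sizes of these medians are therefore not compared with that of the macrophage markers. Differences also lay below 0 for 12 of 12 dendritic and 8 of 9 B cell markers, where 51.7% of all genes did. At an unadjusted p under 0.05 by limma, in either direction, there were 5 of 15 macrophage, 3 of 12 dendritic and 2 of 9 B cell markers. The share over all genes was 16.2%. The lone KO nulliparous tumour with metastasis, in which Cd74, H2-Aa and H2-Ab1 were high, had the highest B cell mean of all samples at 6.70.

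T and NK cell markers, which mark the sources of interferon gamma, averaged 6.37 to 6.53 in WT parous and 6.57 to 7.64 in WT nulliparous tumours. Of 12 such genes 2 fell, Nkg7 at -1.48 and Ncr1 at -0.40, where 1.86% of all genes fell. All 12 differences lay below 0, against 51.7% of all genes. At an unadjusted p under 0.05 by limma there were 7 of the 12, against 16.2% of all genes. WT nulliparous replicate 3, the brightest for Cd74 and H2-Aa, had the T and NK mean of 7.64, the highest of the 17 samples. Of the remaining lists 0 genes passed, with medians of -0.79 for 6 fibroblast genes, -0.16 for 4 endothelial genes, -0.48 for 5 adipocyte genes, -0.67 for 5 muscle genes and -0.08 for 7 epithelial genes. WT nulliparous replicate 1 had the highest muscle and adipocyte means of the 17 samples, at 11.02 and 8.40. The other WT nulliparous tumours had 7.27 to 8.07 and 7.35 to 7.51. Ciita (8.36) and H2-DMa (8.97) were also highest in replicate 1. With the macrophage list mean as a covariate the WT parity difference was -0.55 (adjusted p = 0.136 by limma) for Ciita, -1.03 (adjusted p = 0.325) for H2-Aa and -0.82 (adjusted p = 0.28) for H2-Ab1. The macrophage list includes C1qa, C1qb and C1qc on chromosome 4, where 148 of 1154 genes fell and 0 rose in this contrast. Arrays give no zero, so no marker could be called absent. The part of the other cell types in the class II differences was not tested.

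The 10 genes whose pattern over the 17 samples was most like the scaled mean of the 6 were Plcb2 (Pearson r 0.881), Hp, 2310057J18Rik, Scimp, Ifi206, Ctse, Irf1, Ifi209, Tespa1 and Cfb (0.849). Among the class I genes H2-M3 came closest at an r of 0.82. Rfx5 had an r of 0.49 and H2-Ea of 0.43. These values describe samples that share groups and array processing.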

How the data were processed

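The deposited table holds log2 values of 35556 probe sets on 18 arrays, made by the authors with RMA and the oligo package, per the submitters' processing notes, which give no versions. This method adjusts background, equalises array quantiles and combines the probes of a set, so shifts shared by all genes are removed and differences of dim genes are compressed. The platform annotation names 1 gene for 21789 probe sets, several for 1621 and none for 12146. Only the first kind was used, with the brightest probe set by mean for each gene, and 19855 of the 19938 genes matched RefSeq of GRCm38.p6 by Entrez identifier. RefSeq gave names, chromosomes, gene order and promoter sequence, and no coordinates were taken from the platform annotation, whose build is not stated.

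The KO arrays of parous replicates 2 and 3 with metastasis differed by an SD of 0.102 over 10252 brighter genes, against 0.285 or more for the other of 153 array pairs, and were averaged after this was seen. Group means were fitted over 17 samples with lmFit and eBayes of limma 3.58.1 (R 4.3.3), and the genotype effect also in an additive fit. The fit of group means was checked on simulated data with independent noise, for the contrast of parous and nulliparous WT mice alone. The number of tumours limits the precision. In the fit of group means, each p-value sets a difference against the spread between tumours within groups, estimated over all groups together. The named genes are all 6 members, passing members of the lists and otherwise up to 6 in list order; members and lists were chosen with earlier results of these data known. Alternatives were all arrays kept apart, quantile normalization again, the dimmest 40% left out, the mean of a gene's probe sets, all probe sets, the compared groups alone, a replicate block, a macrophage covariate and each sample left out. The exact test of the values relative to class I was added after the data were seen.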

Additional observations from a re-analysis of the deposited data

How the results depend on the processing

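Over 25 alternative settings the 42 differences of the 6 genes were computed 1044 times, and 1011 values kept their direction and 33 reversed. The WT parity differences of all 6 genes stayed below 0 in every setting. The Ciita call was lost with the compared groups alone (adjusted p = 0.0562 by limma), with the macrophage covariate and with a replicate block (adjusted p = 0.0743). Samples of the same replicate number did not deviate together (r of -0.18 to 0.04 in WT and -0.30 to -0.03 in KO). The labels do not state whether the numbers pair mice, and these correlations cannot settle it. The block is given only here.

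The count of genes passing with parity in WT mice, 478, became 741 with all probe sets, 878 with the compared groups alone, 212 with the replicate block and 123 with the macrophage covariate. It ran from 57 (without WT nulliparous replicate 4) to 770 (without KO parous replicate 2 without metastasis) with a sample left out. Samples left out in turn gave 0 to 2 genes for parity in KO mice, 0 to 8 for the difference of the parity contrasts, 0 to 17 for genotype in parous mice, 0 to 5 for metastasis and 0 to 0 in the additive fit. Relative to class I the count of 18951 became 11035 without the dimmest 40% and 34187 with all probe sets, by the number tested, and ran from 18203 to 19145.

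Reversed values were all of differences that did not pass. For parity in KO mice H2-DMa became -0.04 with the macrophage covariate and ran from -0.18 to 0.24 with a sample left out. For genotype in parous mice Ciita ran from -0.05 to 0.32 and H2-DMa from -0.05 to 0.11, and in the additive fit H2-Eb1 ran from -0.64 to 0.22. For metastasis in KO mice, with all arrays apart, the replicate block and the macrophage covariate, Cd74 became 0.05, 0.14 and 0.11 and H2-Ab1 0.01, 0.05 and 0.03. With a sample left out Cd74 ran from -0.32 to 0.24, Ciita from -0.30 to 0.07, H2-Aa from -0.16 to 0.22, H2-Ab1 from -0.32 to 0.17 and H2-DMa from -0.27 to 0.15. Relative to class I Cd74 became 0.10 with the mean of a gene's probe sets and ran from -0.33 to 0.29, H2-Aa ran from -0.44 to 0.19, and H2-Ab1 became 0.00 with the macrophage covariate and ran from -0.08 to 0.30. The causes were not tested. With 2 to 4 samples a group, small differences could not be resolved.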

Other observations

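The members were also listed with the 5 genes nearest to each over the 17 samples, a rule chosen after the data were seen. Nearest to Ciita were Cfb, which encodes complement factor B (Pearson r 0.91), Dusp10 (0.90), Gm12250 (0.89), Irf1 (0.88) and H2-DMa (0.87). H2-DMa lay nearest to Gm4841 (0.89) and Lfng (0.88), with Gm12250 and Ciita at 0.87. Beyond each other, Cd74, H2-Aa and H2-Ab1 shared Tespa1, which takes part in T cell receptor signalling, at 0.86 to 0.87. H2-Eb1 lay nearest to H2-Ea (0.91), D17H6S56E-5 (0.87), Ramp1 (0.84), Vars (0.82) and Zfyve28 (0.81), and 3 of these 5 lie on chromosome 17. These are descriptions over samples that share groups, and no p is given.

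The gap between each gene and the class I mean of its own tumour also varied within groups. For Cd74 it was -0.03, -1.02, 0.86 and -0.03 in WT nulliparous replicates 1 to 4, so that replicates 2 and 3 lay at opposite ends of the 17 samples but for KO parous replicate 3 without metastasis at 1.04. In WT parous replicates 1 to 4 it was -0.38, -0.16, 0.12 and 0.16.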
